A study of Mus musculus with 14 samples.

Results

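The coagulation and platelet factor genes F7, Vwf, F13a1 and Pf4 were followed in mouse macrophages exposed to interleukin 4 (IL4), and these 4 were taken by name from the 9474 genes in each of 2 tables of library values. All 4 were present in both tables. F7 encodes coagulation factor VII, Vwf encodes von Willebrand factor, F13a1 encodes the catalytic A subunit of coagulation factor XIII, and Pf4 encodes platelet factor 4, also called CXCL4.

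RNA was sequenced from macrophages of C57BL/6J mice in 14 libraries, from a study of IL4 and the uptake of leukemia cells by macrophages. In culture, monocytes from bone marrow were grown for 7 days with CSF1, the macrophage growth factor, either with 20 ng/mL of mouse IL4 (4 libraries) or without it (4 libraries). CSF1 was in the medium of both culture groups, at 25 ng/mL by the growth protocol and at 20 ng/mL by the design text. In marrow, cells bearing F4/80, a surface protein of mouse macrophages, were sorted 12 days after mice received acute myeloid leukemia (AML) cells carrying an IL4 cDNA (3 libraries) or an empty vector (3 libraries, whose AML cells the design text calls wild type). All 6 marrow libraries came from leukemic mice, and the IL4 there was made by the transplanted cells. The sources used here do not name the AML line, the promoter of the cDNA or the age of the mice. Nothing in the labels says whether libraries came from separate mice or cultures, so each p-value measures only a spread between samples that may be technical.

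Blood clotting starts when factor VII, a protease made mainly by the liver, binds tissue factor and activates factor X. Thrombin then turns fibrinogen into fibrin, and factor XIII, a transglutaminase, links the fibrin strands to each other. Von Willebrand factor, stored by endothelial cells and megakaryocytes, tethers platelets to the injured wall and carries factor VIII, while platelet factor 4 is a heparin-binding chemokine of platelet granules. Cells of the monocyte and macrophage lineage are a known source of factor XIII A subunit, some tissue macrophages express Pf4, and in human monocytes F13A1 is a known marker of activation by IL4.

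Promoter sequences in the RefSeq table for GRCm38.p6 were matched for 3 of the 4 genes (F7, F13a1 and Pf4). They are shown because these genes differ in the tissue they are best known from, and each is printed 5′ to 3′ on the strand of its gene for the 250 bases before the annotated start. Capitals mark the one searched motif in each printed stretch. In F7 (chr8:13025784-13026033, plus strand) it is the reverse complement of CAAAGGTCA, a sequence of the kind bound by the liver factor HNF4, with its first base 34 bases before the start. In F13a1 (chr13:37050245-37050494, minus strand, the first of 2 annotated starts) it is GAGGAAG, a sequence of the kind bound by ETS factors such as PU.1, 66 bases before the start. In Pf4 (chr5:90772185-90772434, plus strand) it is the reverse complement of GAGGAAG, 9 bases before the start.
F7: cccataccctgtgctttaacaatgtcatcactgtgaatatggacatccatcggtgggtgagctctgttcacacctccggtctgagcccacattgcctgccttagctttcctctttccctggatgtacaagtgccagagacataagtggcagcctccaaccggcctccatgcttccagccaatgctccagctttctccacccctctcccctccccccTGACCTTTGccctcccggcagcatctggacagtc
F13a1: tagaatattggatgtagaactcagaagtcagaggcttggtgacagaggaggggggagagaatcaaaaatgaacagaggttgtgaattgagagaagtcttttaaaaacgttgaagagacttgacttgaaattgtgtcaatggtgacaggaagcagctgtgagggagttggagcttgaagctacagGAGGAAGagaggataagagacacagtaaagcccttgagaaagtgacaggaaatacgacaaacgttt
Pf4: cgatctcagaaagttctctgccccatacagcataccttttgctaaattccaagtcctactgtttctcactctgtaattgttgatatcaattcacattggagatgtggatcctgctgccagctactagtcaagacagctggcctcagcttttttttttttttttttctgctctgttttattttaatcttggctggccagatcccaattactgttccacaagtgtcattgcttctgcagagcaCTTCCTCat

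Over the full 300-base windows, which run 50 bases past the start, CAAAGGTCA on either strand was in 157 of 32851 RefSeq promoters (0.478%) and GAGGAAG in 4477 (13.6%). Both motifs were chosen after the sequences had been read, so their presence is a description only. The letters TTC and GAA with any 4 bases between them, the form of site that STAT6 (the transcription factor of the IL4 receptor) can bind, were in none of the windows of these 3 genes and in 2284 promoters (6.95%). A GATA motif (GATA with A or T before it and A or G after it, either strand) was in the Pf4 window, as AGATAA 37 bases past the start, and in 9778 promoters (29.8%). No 2 of the motif hits overlapped.

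The library values, on a log2 scale, allowed whole reads to be recovered, and levels are given as reads or as reads per 1000000 recovered reads (RPM). Recovered reads totalled between 551918 and 910636 per library, and the median gene held 23 to 41 reads, so genes with few reads carry wide counting error. The macrophage genes Emr1, which encodes F4/80, and Csf1r, which encodes the CSF1 receptor, averaged 1073 ± 86.4 and 1574 ± 313 RPM in culture with IL4 and 2407 ± 209 and 3007 ± 43.9 RPM in culture controls (SD, n = 4 each). In marrow Emr1 averaged 116 ± 46.0 RPM with IL4 and 65.8 ± 29.4 RPM in controls, and Csf1r 188 ± 74.6 and 401 ± 58.1 RPM (SD, n = 3 each). Neutrophil markers (5 of 12 measured) summed to 43610 to 54144 RPM in marrow IL4 libraries and 58024 to 67500 RPM in marrow controls, against 167 to 438 RPM in culture with IL4 and 147 to 245 RPM in culture controls. By these genes the sorted marrow libraries held less macrophage RNA and more neutrophil RNA than the cultures, and in such bulk samples fewer cells of a type and less RNA per cell cannot be told apart. Both replicate 4 libraries of the culture stood apart from their groups, with a median gap of 0.302 (control) and 0.304 (IL4) on the log2 scale to the rest of the group, against 0.213 to 0.263 in the other 6, and results are given without them where they matter.

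All 4 genes differed between IL4 and control in culture, where F7 and Vwf were higher and F13a1 and Pf4 lower, and 2 of 4 differed in marrow, where F7 was again higher and F13a1 again lower. The test was limma on the deposited log2 values with p-values adjusted over all 9474 genes, two-sided, with a threshold of 0.05. By the same test 40.5% of all genes were called in culture, 7.96% as higher and 32.6% as lower, and 18.2% in marrow, 6.7% as higher and 11.5% as lower. Calls in the same direction in both settings were made for 1.75% of genes as higher, which F7 shared, and 5.86% as lower, which F13a1 shared. The median log2 fold change of all genes was -0.36 in culture and -0.06 in marrow. After each library was centred on its own median, calls in culture numbered 1365 higher and 1205 lower, against 754 higher and 3084 lower as deposited. In marrow the centred counts were 895 higher and 845 lower, against 635 and 1086, and for the difference of responses 889 and 900, against 611 and 1575. The 4 genes kept their directions and calls in culture and in marrow after centring and after quantile normalization.

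**Figure D1:**
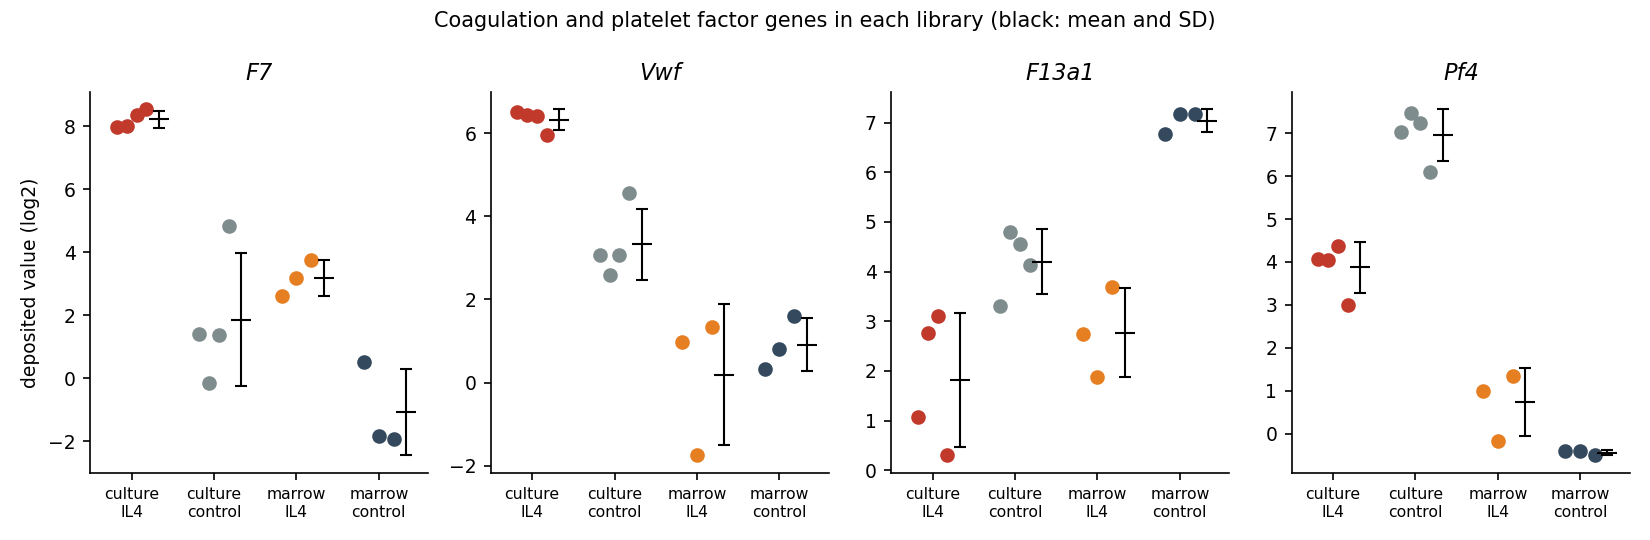
Deposited log2 values of F7, Vwf, F13a1 and Pf4 in each library of culture with IL4, culture control, marrow with IL4 and marrow control, with group means and SD in black (n = 4, 4, 3 and 3). Values are comparable within a gene and not between genes. IL4 and control points are apart in every panel except Vwf in marrow, and the F7 and Vwf values of 1 culture control, replicate 4, lie above those of the other controls. For Pf4 in marrow they are apart only through library size, as IL4 replicate 2 and each control held 1 read.

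F7, the protease that starts the clotting cascade, had the largest response of the 4 genes in culture. Culture IL4 libraries held 560, 577, 624 and 675 reads of F7, or 678, 696, 885.5 and 1005 RPM, against 6, 1, 4 and 55 reads, or 6.59, 1.60, 6.23 and 76.8 RPM, in culture controls. All IL4 libraries were far above all controls, and control replicate 4 was well above the other 3 controls. F7 averaged 816 ± 157 RPM with IL4 and 22.8 ± 36.1 RPM in controls (SD, n = 4 each). The log2 fold change was 6.35 ± 0.82 (SE, 95% interval 4.53 to 8.17, limma adjusted p = 0.000296), and 7.34 ± 0.36 without control replicate 4 or 5.68 ± 0.73 without control replicate 2. Summed reads gave a ratio of 35.2 (95% interval 27.6 to 45.7). Such intervals of ratios, here and below, are exact binomial intervals that cover counting error only.

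In marrow F7 was scarce but its groups were also apart. The marrow IL4 libraries held 9, 13 and 30 reads of F7 (15.6, 23.6 and 35.9 RPM), against 2, 0 and 0 reads (3.06, 0 and 0 RPM) in marrow controls. Every IL4 library was above every control. The log2 fold change was 4.26 ± 0.67 (SE, 95% interval 2.76 to 5.76, limma adjusted p = 0.00260, n = 3 each), and 5.05 ± 0.49 without marrow control replicate 1, which held the only control reads. With controls so near 0 the fitted value depends on the constant added to the reads, and with 2 reads added in place of 0.5 it was 2.85 (limma adjusted p = 3.31e-06). The ratio of summed reads was 26.6, with a 95% interval of 7.00 to 225.

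F7 ranked highest in culture with IL4, at 816 RPM, followed by marrow with IL4 at 25.0, culture control at 22.8 and marrow control at 1.02 RPM. Ranges of marrow IL4 and culture control overlapped, as did those of culture control and marrow control, and levels were not tested between the settings. The first overlap came from culture control replicate 4 (76.8 RPM). The second came from 1 read (1.60 RPM) in culture control replicate 2 and 2 reads (3.06 RPM) in marrow control replicate 1. The response in culture minus that in marrow was 2.09 ± 1.23 on the log2 scale (95% interval -0.54 to 4.72, limma adjusted p = 0.237). This difference of responses passed the threshold without culture control replicate 4 (3.09, adjusted p = 0.0118), without both culture replicate 4 libraries (2.98, adjusted p = 0.0204) and with 2 reads added (3.08, adjusted p = 0.00778).

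The gene next to F7 on chromosome 8 is F10, which encodes factor X, the substrate of factor VII. F7 lies at chr8:13026034-13035809 and F10 at chr8:13037308-13056676, both on the plus strand, with 1499 bases between them (GENCODE M21, GRCm38). F10 held 324, 333, 221 and 156 reads in culture with IL4, against 1, 2, 5 and 34 reads in culture controls. The groups were apart, and as for F7 control replicate 4 held the most reads among controls. In marrow it held 86, 99 and 194 reads with IL4, against 32, 42 and 50 reads in controls, also with no overlap. F10 rose by 5.50 ± 0.81 on the log2 scale in culture (limma adjusted p = 0.000627, n = 4 each) and by 1.58 ± 0.19 in marrow (limma adjusted p = 0.000804, n = 3 each). The marrow call was lost when all 14 libraries shared 1 estimate of the spread (adjusted p = 0.201). Without culture control replicate 4 the culture value was 6.41, and without culture control replicate 1 it was 4.79. The F10 response was larger in culture than in marrow by 3.91 ± 1.06 (limma adjusted p = 0.0158).

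Other genes within 100 kb of F7 were looked at after these values were seen. Mcf2l, a guanine nucleotide exchange factor gene 5129 bases upstream of F7, rose by 3.70 ± 0.30 in culture (limma adjusted p = 1.82e-05) and differed by 0.03 ± 0.20 in marrow (adjusted p = 0.938). Pcid2, farther downstream, had a log2 fold change of 0.54 ± 0.18 in culture (adjusted p = 0.0336) and 0.37 ± 0.20 in marrow (adjusted p = 0.252). Cul4a, a ubiquitin ligase scaffold gene beyond it, had 0.02 ± 0.17 in culture and -0.27 ± 0.17 in marrow, and passed in neither (adjusted p = 0.937 and 0.321). Over the neighbourhood, F7, F10 and Mcf2l thus had large responses in culture, and only F7 and F10 of these 5 genes passed the threshold in marrow.

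Vwf, the gene of the platelet-tethering multimer, rose with IL4 in culture and had hardly any reads in marrow. Culture IL4 libraries held 230, 219, 183 and 128 reads of Vwf (278, 264, 259.7 and 190.5 RPM), against 23, 11, 16 and 51 reads (25.3, 17.6, 24.9 and 71.3 RPM) in culture controls. The groups did not overlap. The lowest IL4 library and the highest control were both replicate 4. Vwf averaged 248 ± 39.3 RPM with IL4 and 34.8 ± 24.6 RPM in controls (SD, n = 4 each), and the log2 fold change was 3.00 ± 0.36 (95% interval 2.21 to 3.80, limma adjusted p = 0.000180). It was 3.53 ± 0.18 without both replicate 4 libraries, and summed reads gave a ratio of 7.18 (95% interval 5.83 to 8.92).

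In marrow Vwf held 3, 0 and 6 reads with IL4 and 2, 3 and 6 reads in controls. These counts overlapped, and the log2 fold change of -0.72 ± 0.79 did not pass (95% interval -2.51 to 1.07, limma adjusted p = 0.583, n = 3 each). Without marrow IL4 replicate 2, which held 0 reads, it was 0.25, so the direction rested on that library. Summed reads had a ratio of 0.837 with a 95% interval of 0.307 to 2.22, and the culture ratio of 7.18 lies above that interval. The Vwf response was larger in culture than in marrow by 3.72 ± 0.88 (95% interval 1.84 to 5.61, limma adjusted p = 0.00763), and by 2.75 without marrow IL4 replicate 2 (adjusted p = 0.00740). Vwf was highest in culture with IL4, followed by culture control, marrow control at 5.39 RPM and marrow IL4 at 4.12 RPM, and the marrow groups at the end of that order overlapped.

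Vwf lies at chr6:125546774-125686679 on the plus strand. Cd9, the gene of a tetraspanin of platelets and other blood cells, is the measured gene within 100 kb of it, at a gap of 51983 bases. Cd9 rose by 0.997 ± 0.18 in culture (limma adjusted p = 0.00181) and by 1.18 ± 0.17 in marrow (adjusted p = 0.00172).

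F13a1, the gene of the fibrin-linking transglutaminase, was lower with IL4 in both settings. Culture IL4 libraries held 11, 37, 40 and 5 reads of F13a1 (13.3, 44.6, 56.8 and 7.44 RPM), against 59, 114, 100 and 83 reads (64.8, 183, 156 and 116 RPM) in culture controls. All IL4 libraries were below all controls, and replicates 1 and 4 with IL4 were the lowest. F13a1 averaged 30.5 ± 23.9 RPM with IL4 and 129.8 ± 51.3 RPM in controls (SD, n = 4 each). The log2 fold change was -2.39 ± 0.60 (95% interval -3.71 to -1.07, limma adjusted p = 0.0104), and summed reads were 4.01 times lower with IL4 (95% interval 3.19 to 5.10).

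In marrow the same gene held 25, 13 and 71 reads with IL4 (43.3, 23.6 and 84.9 RPM), against 472, 627 and 667 reads in controls (723, 955 and 951 RPM). Every IL4 library was far below every control. The group means were 50.6 ± 31.3 RPM with IL4 and 876 ± 133 RPM in controls (SD, n = 3 each), and the log2 fold change was -4.27 ± 0.39 (95% interval -5.14 to -3.40, limma adjusted p = 0.000217). Summed reads were 15.8 times lower with IL4 (95% interval 13.05 to 19.4). Among the groups F13a1 was highest in marrow control, followed by culture control, marrow IL4 and culture IL4, and the last 3 of these overlapped each with its neighbour.

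The fall of F13a1 had a larger point value in marrow, and the response in culture minus that in marrow was 1.88 ± 0.85 (95% interval 0.06 to 3.70, limma adjusted p = 0.125). The difference was thus not past the threshold over all genes. It passed without culture IL4 replicate 4 (2.39, adjusted p = 0.0318), without both culture replicate 4 libraries (2.36, adjusted p = 0.0396) and with 2 reads added (1.93, adjusted p = 0.0332). F13a1 lies at chr13:36867178-37050244 on the minus strand, and its span overlaps those of the antisense genes Gm49144 and Gm30489, which were not measured. The sources used here do not say whether the authors counted by strand. Overlap of exons was not checked, so any part of these genes in the reads of F13a1 is not known.

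Pf4, the platelet chemokine gene, was lower with IL4 in culture and near the limit of detection in marrow. Culture IL4 libraries held 42, 41, 44 and 16 reads of Pf4 (50.9, 49.4, 62.4 and 23.8 RPM), against 362, 332, 294 and 149 reads (398, 532, 458 and 208 RPM) in culture controls. All IL4 libraries were below all controls. Replicate 4 was the lowest library in each of these groups. Pf4 averaged 46.6 ± 16.3 RPM with IL4 and 399 ± 139 RPM in controls (SD, n = 4 each), and the log2 fold change was -3.08 ± 0.34 (95% interval -3.84 to -2.33, limma adjusted p = 0.000114). Summed reads were 8.34 times lower with IL4 (95% interval 7.00 to 9.99).

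In marrow Pf4 held 3, 1 and 6 reads with IL4 and 1, 1 and 1 reads in controls. IL4 replicate 2 held as many reads as each control, and the groups were apart in RPM only because that library was the smallest. The log2 fold change of 1.17 ± 0.52 did not pass (95% interval -0.01 to 2.35, limma adjusted p = 0.158, n = 3 each), and the ratio of summed reads was 3.41 with a 95% interval of 0.878 to 19.3. The Pf4 response in culture minus that in marrow was -4.25 ± 0.57 (95% interval -5.47 to -3.03, limma adjusted p = 0.000140). With 1 read in each marrow control, the size of the Pf4 response in marrow is poorly known. The culture ratio of summed reads, 0.120, still lies below the marrow interval of 0.878 to 19.3, which covers counting error only. By mean RPM Pf4 was ordered culture control, culture IL4, marrow IL4 at 4.72 and marrow control at 1.49 RPM, with no overlap between neighbours in RPM. A group total of 3 reads corresponds to 1.53 RPM in marrow IL4 and 1.49 RPM in marrow controls, so the level of Pf4 in marrow controls is at that floor.

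**Figure D2:**
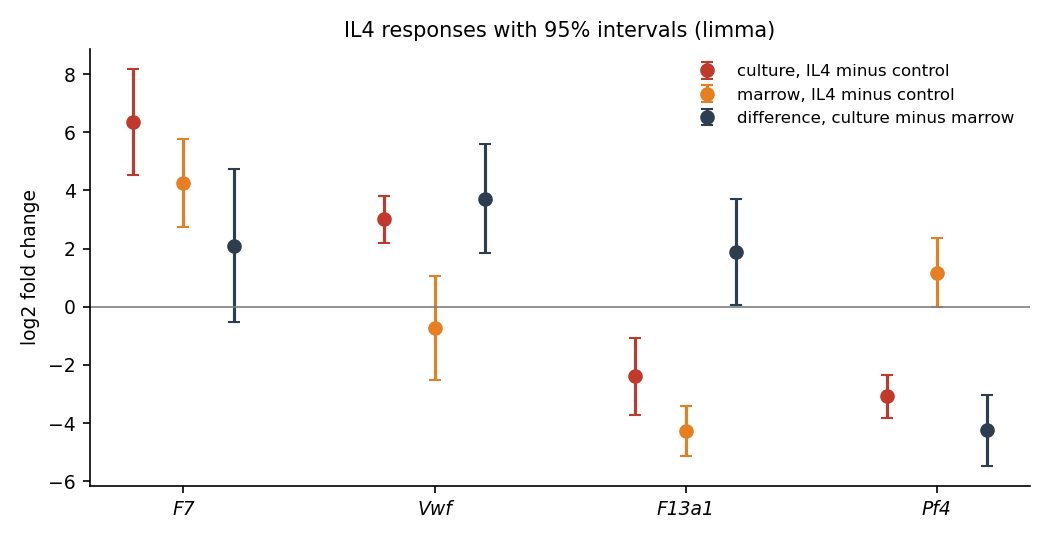
Log2 fold changes of F7, Vwf, F13a1 and Pf4, IL4 minus control, in culture (4 against 4 libraries) and in marrow (3 against 3), and the culture response minus the marrow response, with 95% intervals from limma. The intervals of the difference exclude 0 for Vwf (3.72), F13a1 (1.88) and Pf4 (-4.25), and after adjustment over all genes Vwf and Pf4 passed.

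Of the 4 genes, 2 (Vwf and Pf4) thus passed the test of a difference between the culture and marrow responses, Pf4 with its marrow controls at the floor. By the same test 23.1% of all genes passed, 6.45% with a positive and 16.6% with a negative difference, and the median difference of all genes was -0.30. Non-overlap of IL4 and control libraries, seen for all 4 genes in culture and 3 in marrow, was found for 37.7% and 37.6% of all genes. For Pf4 in marrow it came only from library size. The 4 genes did not vary as a block across libraries. With the mean of each gene subtracted within each table, Pearson's r over the 14 libraries was 0.64 for F7 with Vwf, -0.77 for F7 with F13a1, -0.64 for F7 with Pf4, -0.70 for Vwf with Pf4, 0.32 for F13a1 with Pf4 and -0.18 for Vwf with F13a1. These values rest on the same libraries and on the IL4 contrast itself, and are a description with no test. The measured genes most like each of the 4 by this measure, predicted genes aside, were Abcg1 (r = 0.98), Ubl3 (0.97) and Cd9 (0.96) for F7, and Mfsd12 (0.96), Rin2 (0.94) and Hipk2 (0.92) for Vwf. They were Abcg2 (0.96), Msr1 (0.94) and Bmpr2 (0.93) for F13a1, and Lcp1 (0.96), Egr1 (0.96) and Mvb12b (0.95) for Pf4.

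Of 18 procoagulant factors listed, 5 were measured, namely F5, F7, F10, F13a1 and Vwf. In culture 3 rose, 1 fell and 1 did not pass, with a median log2 fold change of 3.00, also with F5 at its bound. In marrow 2 rose, 1 fell and 2 did not pass, with a median of -0.20. F5, the cofactor of factor X, had 0, 5, 4 and 0 reads in culture IL4 libraries and 0 reads in every culture control. With controls set to 3 reads over the group, the ratio of summed reads was 2.86. That bound leaves out the counting error of the 9 IL4 reads. The F5 response in culture did not pass (limma adjusted p = 0.173). In marrow F5 averaged 181 ± 11.3 RPM with IL4 and 209 ± 28.0 RPM in controls (-0.20 ± 0.15, adjusted p = 0.407, n = 3 each).

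Factor VII and factor X need vitamin K for the carboxylation of their glutamate residues, and all 6 listed genes of the vitamin K cycle and of clotting factor secretion were measured. In culture 1 of the 6 passed, the processing protease gene Furin (-0.50 ± 0.12, limma adjusted p = 0.00854), and that call was lost after centring (-0.14, adjusted p = 0.404). Vkorc1l1, a vitamin K reductase gene, had 0.40 ± 0.23 in culture (adjusted p = 0.189) and passed after centring (0.76, adjusted p = 0.0389). In marrow 1 rose, Mcfd2 (1.80 ± 0.21, limma adjusted p = 0.000654), which encodes a part of the receptor that carries factors V and VIII out of the endoplasmic reticulum. Ggcx, the gene of the carboxylase itself, had -0.45 ± 0.41 in culture (adjusted p = 0.404) and -0.17 ± 0.72 in marrow (adjusted p = 0.899), and passed in neither.

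Of 14 anticoagulants listed, 4 were measured. Thbd, the gene of thrombomodulin, which turns thrombin toward activation of protein C, fell by 1.23 ± 0.20 on the log2 scale in culture (limma adjusted p = 0.00111) and fell by 1.74 ± 0.38 in marrow (adjusted p = 0.0131), and the marrow call was lost without marrow control replicate 3 (-1.48, adjusted p = 0.0603). Anxa5, which encodes the phosphatidylserine-binding annexin A5, fell by 0.86 ± 0.12 in culture (adjusted p = 0.000366) and had 0.06 ± 0.13 in marrow (adjusted p = 0.798). Tfpi, the gene of the inhibitor of tissue factor and factor VII, had 0.01 ± 0.31 in culture (adjusted p = 0.981). In marrow its 2.12 ± 0.89 also missed the threshold (adjusted p = 0.136), and it passed without marrow control replicate 2 (3.07, adjusted p = 0.0391). Pros1, the gene of protein S, had 0.32 ± 0.21 in culture (adjusted p = 0.230), which passed after centring (0.69, adjusted p = 0.0298), and -1.32 ± 0.63 in marrow (adjusted p = 0.180).

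**Figure D3:**
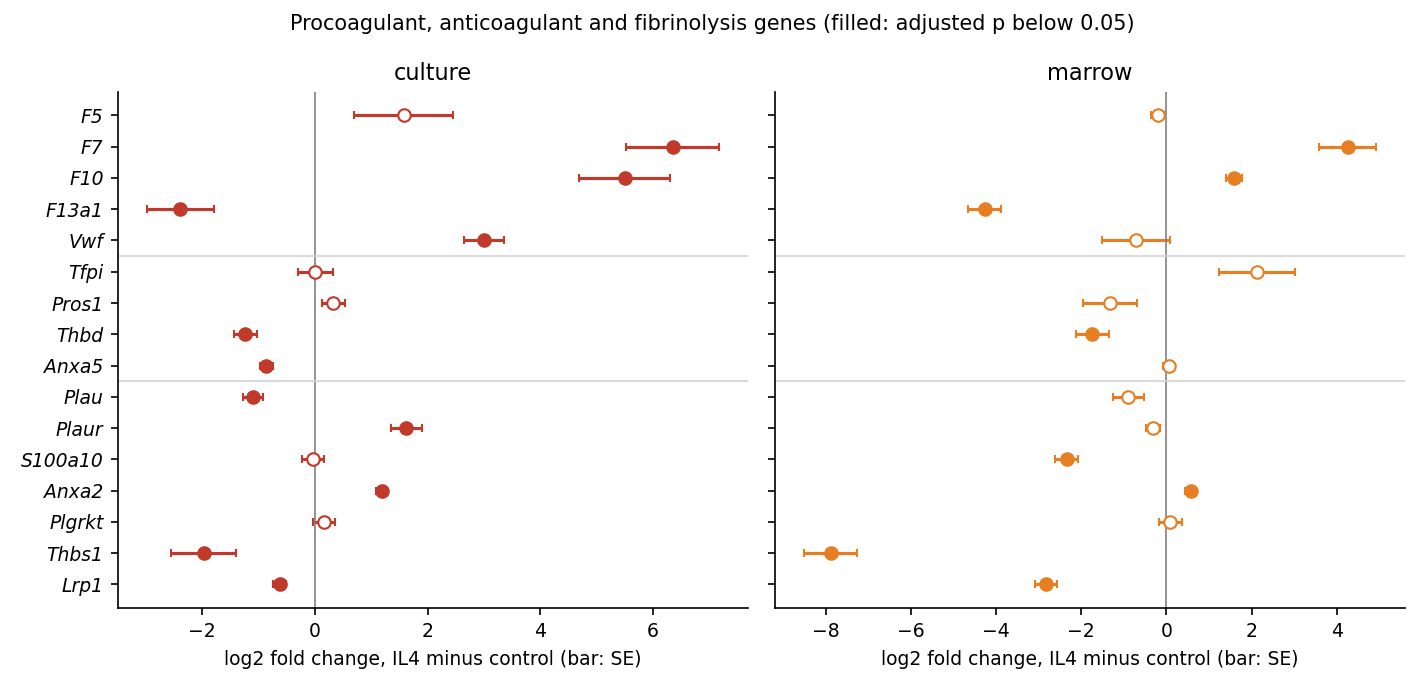
Log2 fold changes, IL4 minus control, of the measured procoagulant genes (upper 5), anticoagulants (middle 4) and fibrinolysis genes (lower 7) in culture (left, n = 4 each) and marrow (right, n = 3 each), with SE. Filled points passed an adjusted p below 0.05 in limma. F7 and F10 stand far to the right in culture, and Thbs1 and F13a1 far to the left in marrow.

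Fibrinolysis, the removal of fibrin by plasmin, was represented by 7 of 15 listed genes, of which 2 rose and 3 fell in culture and 1 rose and 3 fell in marrow. Plaur, the gene of the urokinase receptor, rose by 1.63 ± 0.28 in culture (limma adjusted p = 0.00142) and had -0.31 ± 0.17 in marrow (adjusted p = 0.246). Plau, the gene of urokinase, fell by 1.10 ± 0.18 in culture (adjusted p = 0.00104) and had -0.90 ± 0.36 in marrow (adjusted p = 0.121), which passed without marrow IL4 replicate 2 (-1.34, adjusted p = 0.0120). The subunits of the annexin A2 receptor of plasminogen went separate ways. Anxa2 rose by 1.19 ± 0.10 in culture (adjusted p = 2.05e-05) and by 0.57 ± 0.13 in marrow (adjusted p = 0.0178), and lost the marrow call without any 1 of 3 marrow libraries (IL4 replicate 3, 0.51, and control replicates 2 and 3, 0.53 and 0.50). Its partner S100a10 had -0.04 ± 0.20 in culture (adjusted p = 0.894) and fell by 2.34 ± 0.27 in marrow (adjusted p = 0.000608). Plgrkt, the gene of another plasminogen receptor, passed in neither setting, with 0.17 ± 0.19 in culture (adjusted p = 0.511) and 0.09 ± 0.28 in marrow (adjusted p = 0.855).

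Thbs1, the gene of thrombospondin 1, a platelet granule and macrophage protein, held 0, 1 and 0 reads in marrow IL4 libraries and 147, 100 and 378 reads in marrow controls. The groups were far apart, with a log2 fold change of -7.89 ± 0.63 (limma adjusted p = 0.000111, n = 3 each) that depends on the constant added to the reads. Summed reads were 611 times lower with IL4, with a 95% interval of 109 to 24174 that a single read in the IL4 group leaves wide. In culture Thbs1 averaged 137 ± 110 RPM with IL4 and 401 ± 84.1 RPM in controls (-1.97 ± 0.58, adjusted p = 0.0209), and that call was lost after centring (-1.61, adjusted p = 0.0639) and without culture control replicate 2 (adjusted p = 0.0538). Lrp1, a clearance receptor for proteases bound to their inhibitors, fell by 0.62 ± 0.11 in culture (adjusted p = 0.00212, lost after centring with -0.26 and adjusted p = 0.0980) and fell by 2.83 ± 0.27 in marrow (adjusted p = 0.000255).

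Among receptors of clotting proteases 1 of 4 was measured, F2r, the gene of the thrombin receptor PAR1. F2r held 23, 31 and 50 reads in marrow IL4 libraries and 6, 7 and 8 reads in marrow controls, with no overlap. Its log2 fold change in marrow was 2.22 ± 0.21 (limma adjusted p = 0.000255, n = 3 each), and the adjusted p was 0.0532 when all 14 libraries shared 1 estimate of the spread. In culture F2r held 0, 0, 3 and 0 reads with IL4 and 1, 6, 1 and 2 reads in controls (-1.68 ± 0.76, adjusted p = 0.103), and the ratio of summed reads was 0.286 (95% interval 0.0506 to 1.11). That value passed without culture IL4 replicate 3 (-2.42, adjusted p = 0.0141), the only IL4 library with reads. The culture value of F2r also passed when all 14 libraries shared 1 estimate of the spread (adjusted p = 0.0450).

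F13a1 belongs to the transglutaminases, of which 2 of 8 were measured. The other, Tgm2, which encodes tissue transglutaminase, went the opposite way. Tgm2 averaged 396 ± 84.7 RPM in culture with IL4 and 183 ± 45.1 RPM in culture controls, a rise of 1.11 ± 0.21 (limma adjusted p = 0.00255, n = 4 each). In marrow it averaged 69.4 ± 19.3 RPM with IL4 and 34.7 ± 6.39 RPM in controls, a rise of 0.96 ± 0.25 (adjusted p = 0.0259, n = 3 each). The marrow call was lost when any 1 of 4 marrow libraries was left out (IL4 replicate 2 or 3, or control replicate 1 or 2, 0.77 to 1.01, adjusted p = 0.0579 to 0.0844).

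Pf4 belongs to the CXC chemokines, of which 4 of 14 were measured. In culture 3 fell, Pf4, Cxcl14 (-2.07 ± 0.32, limma adjusted p = 0.000786) and Cxcl16 (-1.58 ± 0.17, adjusted p = 9.54e-05), and Cxcl2, a neutrophil attractant, had -1.60 ± 0.75 (adjusted p = 0.113), which passed without culture IL4 replicate 3 (-2.30, adjusted p = 0.0195). In marrow none of the 4 passed by limma (0 at the adjusted threshold), Cxcl14 was at 0 reads in all 6 libraries, and the unadjusted p was above 0.05 for each. With the replicate number as a block Cxcl2 passed in marrow (-1.15, adjusted p = 0.0352). None of the neighbours of Pf4 within 100 kb on chromosome 5, among them Ppbp and Cxcl5, was among the measured genes.

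Vwf and Pf4 are also markers of megakaryocytes and platelets, so the other genes of that list were set beside them. Of 27 listed, 8 were measured, of which 4 rose and 2 fell in culture and 3 rose in marrow. Itgb3, the gene of the beta subunit of the platelet fibrinogen receptor and of the vitronectin receptor, rose by 4.34 ± 0.15 in culture (limma adjusted p = 3.09e-08) and by 1.66 ± 0.18 in marrow (adjusted p = 0.000455). P2ry1, an ADP receptor gene, rose by 2.87 ± 0.41 in culture (adjusted p = 0.000510) and by 1.49 ± 0.22 in marrow (adjusted p = 0.00180). Tbxas1, the thromboxane synthase gene, rose by 0.54 ± 0.15 in culture (adjusted p = 0.0172, lost without culture control replicate 3 at 0.0517) and by 1.59 ± 0.25 in marrow (adjusted p = 0.00287).

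Genes of that list are not restricted to platelets, and Tbxas1 averaged 192 ± 38.4 RPM in culture controls (SD, n = 4). Fli1, the gene of an ETS factor of megakaryocytes and other blood cells, fell by 1.46 ± 0.16 in culture (limma adjusted p = 0.000114) and had 0.39 ± 0.18 in marrow (adjusted p = 0.155). Ptgs1, the cyclooxygenase 1 gene, had -0.35 ± 0.17 in culture (adjusted p = 0.121), which passed without culture control replicate 4 (-0.47, adjusted p = 0.0285). Rasgrp2 had 0.01 ± 0.73 in culture (adjusted p = 0.994), and in marrow Ptgs1 and Rasgrp2 had 0.15 ± 0.13 and -0.06 ± 0.15. Without Vwf and Pf4 the 6 measured markers summed to 705 to 765 RPM in culture with IL4 and 438 to 485 RPM in culture controls. In marrow they summed to 787 to 973 RPM with IL4 and 475 to 522 RPM in controls. The groups did not overlap in either setting, and the part of this in the values of Vwf and Pf4 was not tested.

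Endothelial markers, the other known source of Vwf, had 4 of 19 genes measured. Pecam1, which encodes the adhesion protein CD31, averaged 24.7 ± 10.5 RPM in culture with IL4 and 0.624 ± 0.731 RPM in culture controls, a rise of 4.29 ± 0.48 (limma adjusted p = 0.000122, n = 4 each). Summed reads of Pecam1 in culture, 75 with IL4 and 2 in controls, had a ratio of 35.8 (95% interval 9.56 to 301). In marrow Pecam1 rose by 2.05 ± 0.25 (adjusted p = 0.000819, n = 3 each). Eng, the endoglin gene, fell by 0.49 ± 0.16 in culture (adjusted p = 0.0307, lost after centring and without culture control replicate 1 or 2 or IL4 replicate 1 or 3) and fell by 1.14 ± 0.25 in marrow (adjusted p = 0.0137, and 0.0513 without marrow IL4 replicate 3). Without Vwf the 3 measured markers summed to 89.6 to 108 RPM in culture with IL4 and 87.2 to 145 RPM in culture controls. Most of that sum was Eng, at 69.7 ± 7.24 RPM with IL4 and 98.9 ± 22.3 RPM in controls, so its overlap between groups hides Pecam1, which rose alongside Vwf. The part of these markers in the rise of Vwf was not tested. In marrow they summed to 154 to 217.5 RPM with IL4 and 62.8 to 94.1 RPM in controls, where Vwf had 9 reads and 11 reads in all.

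F13a1 is a marker of blood monocytes, and 9 of 14 monocyte markers were measured. In culture 2 rose and 5 fell, and in marrow 1 rose and 5 fell, F13a1 among those that fell in both. Ccr2, the gene of the chemokine receptor that draws monocytes out of marrow, fell by 3.63 ± 0.67 in culture (limma adjusted p = 0.00222) and fell by 3.92 ± 0.16 in marrow (adjusted p = 3.83e-06). Cx3cr1, a chemokine receptor gene of patrolling monocytes, was at 0 reads in all 7 IL4 libraries and averaged 326 ± 102 RPM in culture controls and 134 ± 12.1 RPM in marrow controls. Chil3 and, in culture, Fn1 are the ones that rose, and both are also known as genes of macrophages activated by IL4. The summed list without F13a1 follows Chil3, at 27126 to 37136 RPM in culture with IL4 and 975 to 1445 RPM in culture controls, and at 28526 to 29961 RPM in marrow with IL4 and 7879 to 9363 RPM in marrow controls. Markers of other marrow cells fell beside F13a1 too. The 2 measured of 11 erythroid markers, Car2 and Tfrc, both fell in marrow and summed to 182 to 253 RPM with IL4 and 1395 to 1453 RPM in controls, and both rose in culture (417 to 1157 RPM with IL4, 58.7 to 159 RPM in controls). The 3 measured of 10 B cell markers, Blnk, Cd79b and Cd22, all fell in marrow and summed to 43.3 to 77.7 RPM with IL4 and 151 to 170 RPM in controls. The fall of Cd22 there lost its call without IL4 replicate 2 or control replicate 2 or 3 (adjusted p of 0.0541 to 0.0594). In culture these B cell markers summed to 225 to 285 RPM with IL4 and 149 to 201 RPM in controls. Cd22 had 1.52 ± 0.36 in culture (limma adjusted p = 0.00757) and Cd79b had -2.38 ± 0.26 (adjusted p = 0.000113). Blnk had 0.39 ± 0.14 (adjusted p = 0.0421), a call lost without culture control replicate 2 (adjusted p = 0.110). The part of any of these markers in the fall of F13a1 was not tested.

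Pf4 is also listed among genes of resident macrophages, of which 14 of 16 were measured. In culture 10 fell, Pf4 among them, and 4 did not pass. In marrow 9 rose and 5, Pf4 among them, did not pass. Without Pf4 the 13 others summed to 2896 to 3507 RPM in culture with IL4 and 5487 to 6971 RPM in culture controls, and to 680 to 1507 RPM in marrow with IL4 and 340 to 442 RPM in marrow controls. Maf, a transcription factor gene, and Axl, the gene of a receptor for dying cells, had the smallest p of this list in culture, at -4.33 ± 0.23 and -4.56 ± 0.42 (limma adjusted p = 1.27e-06 and 3.79e-05). In marrow C1qb, a complement gene, rose by 3.44 ± 0.33 (adjusted p = 0.000255). The point values of Pf4, -3.08 in culture and 1.17 in marrow, had the same signs as these lists, and their part in Pf4 was not tested.

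The culture control replicate 4 held the highest values of F7, F10 and Vwf and the lowest of Pf4 among culture controls. It also held 1091 reads of Trf, the transferrin gene and the only hepatocyte marker measured of 8, the most among culture controls. Trf rose by 2.56 ± 0.36 in culture (limma adjusted p = 0.000516) and by 1.62 ± 0.34 in marrow (adjusted p = 0.0101). Retnla, a gene strongly raised by IL4 in mouse macrophages, had 0 reads in all 4 culture controls, replicate 4 included, and Itgb3 had 7 to 12 reads there. Of other genes that rose with IL4 in culture, P2ry1 (19.6 RPM) and Plaur (69.9 RPM) were highest in replicate 4 among culture controls. Tgm2 (138 RPM), which also rose, was lowest in it. Without both replicate 4 libraries the culture log2 fold changes were 7.24 for F7, 3.53 for Vwf, -1.90 for F13a1 and -3.08 for Pf4, all past the threshold (limma adjusted p = 6.49e-06, 5.09e-06, 0.0272 and 5.14e-06, n = 3 each).

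For the 4 genes, the fold changes that the authors deposited for the culture were smaller in size than those of the library values. In the authors' deposited table of the culture, F7 had a fold of 14.9 (q = 0.180), Vwf 1.95 (q = 0.0130), F13a1 0.309 (q = 0.153) and Pf4 0.553 (q = 0.00863). The library values give folds of 81.7, 8.01, 0.191 and 0.118 for these genes, in that order. Over all genes the deposited culture folds are matched only when log2 is taken a second time of the log2 values, with values under 0.01 set to 0.01 (largest log2 gap 1.67e-06, against 5.74 for the plain difference). With that second log, limma gave 3.89 for F7 (adjusted p = 0.0928) and -1.70 for F13a1 (adjusted p = 0.0761), which no longer passed. In the authors' deposited table of the marrow the folds are those of the plain difference, 19.2 for F7 (q = 0.0701), 0.608 for Vwf (q = 0.707), 0.0519 for F13a1 (q = 0.0356) and 2.25 for Pf4 (q = 0.204).

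**Figure D4:**
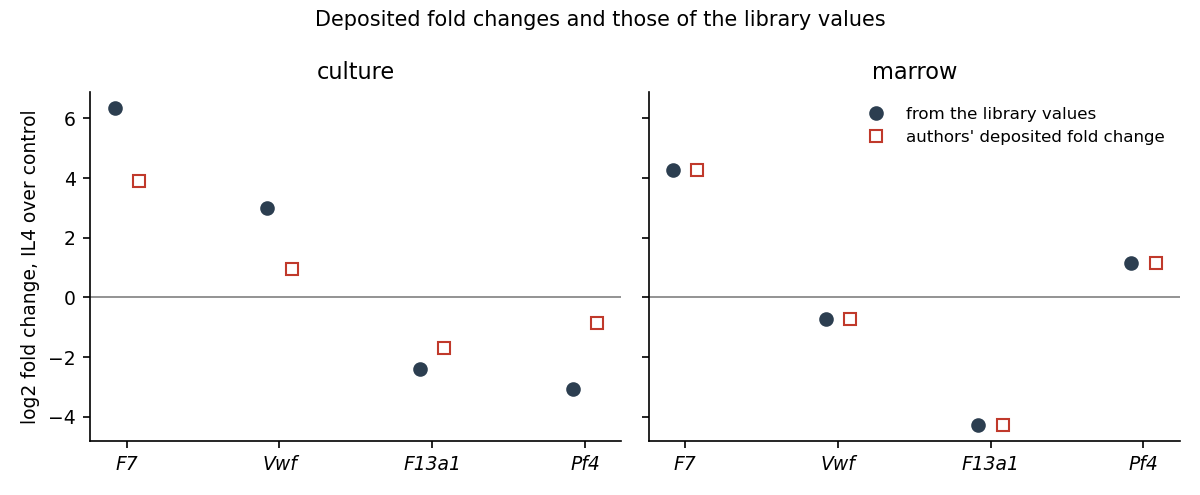
Log2 fold changes of F7, Vwf, F13a1 and Pf4, IL4 over control, computed from the library values (circles) and from the fold changes in the authors' deposited tables (squares), in culture (left) and marrow (right). The squares lie nearer to 0 than the circles for all 4 genes in culture and coincide with them in marrow.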

How the data were processed

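The 4 genes and the lists around them were chosen with earlier results of these data known. The labels' protocols name QIAshredder and RNeasy Micro kits for RNA, and TruSeq RNA v2 for the sequencing libraries. The submitters' processing notes name TopHat2 2.0.13, bcl2fastq and build mm10. No source used here names the counting tool, the annotation, the strand setting or how genes were chosen.

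The authors deposited 1 table per experiment with log2 values per library, plus a linear fold change, a p-value and a q-value per gene. How the authors made the log2 values is not stated. Each value equals the log2 of whole reads with 0.5 added, with a constant per gene, which is the same in both tables, and a constant per library, which equals minus log2 of the total within 0.0077. Solving for these gave whole reads for 9423 of 9474 genes (99.5%), with a largest log2 residual of 6.4e-05 for the 4 genes. For the other 51 genes, among them Lyz2 and Itgam, the reads are less sure. The constant per gene makes values incomparable between genes. The deposited culture ratio (fold change) is the authors' value and follows from a second log2, as the report gives, so folds were computed anew from the library values. The number of per-sample columns left unused was 0.

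Each table was fitted with limma 3.58.1 (R 4.3.3), as lmFit and eBayes with a variance trend and no covariate, on the deposited log2 values as they stand. Residual degrees of freedom were 6 in culture, 4 in marrow and 10 for the difference of responses, which was fitted on both tables joined. P-values are two-sided and adjusted by the Benjamini-Hochberg method over 9474 genes, and every adjusted p is from limma. The fits were tested on simulated data. No 2 libraries of a group agreed within sampling noise (reads gave chi-square values of 1.35 to 5.64 per degree of freedom). Replicate numbers were not used as pairs in the main fits, and whether they pair IL4 and control libraries was not settled. By rule the text could name the 4 genes, Emr1 and Csf1r, any measured gene of the coagulation, fibrinolysis, transglutaminase and platelet lists, up to 3 genes with the smallest p past the threshold of each other list (not all of these are named), and the 3 genes most correlated with each of the 4. Ggcx, Vkorc1l1, Cxcl2, Ccr2, Cx3cr1, Chil3, Fn1, Retnla, Lyz2, Itgam and the neighbours on the chromosome were named beside them, some after their values were seen. Positions are from GENCODE M21 and promoters from RefSeq. Alternatives were centring, quantile normalization, 2 reads added, a filter at the 25th percentile of mean reads, other variance priors, the replicate block, each library left out and 1 fit over 14 libraries. Leaving out both culture replicate 4 libraries and taking the second log2 were chosen after seeing the data.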

Additional observations from a re-analysis of the deposited data

Results flagged for a closer look

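Responses to IL4 that differed between culture and marrow drew attention for Pf4 and Vwf, by the test of the difference itself. The Pf4 response in culture minus that in marrow was -4.25 ± 0.57 on the log2 scale (limma adjusted p = 0.000140), with all 4 culture IL4 libraries below all 4 controls and 10 reads in marrow IL4 libraries against 3 reads in marrow controls. The Vwf response in culture minus that in marrow was 3.72 ± 0.88 (limma adjusted p = 0.00763), with all 4 culture IL4 libraries above all 4 controls and 9 reads in marrow IL4 libraries against 11 reads in marrow controls. Both marrow responses rest on few reads, so their sizes are poorly known. For Pf4 the ratio of summed reads was 3.41 in marrow (95% interval 0.878 to 19.3, counting error only) and 0.120 in culture. Among culture controls, replicate 4 stood apart from the other libraries in RPM for F7 and Vwf, past the 95% level of Dixon's ratio for a group of 4. Its F7 level was 76.8 RPM, against 1.60 to 6.59 RPM in the other controls (ratio 0.934). Its Vwf level was 71.3 RPM, against 17.6 to 25.3 RPM in the other controls (ratio 0.858). On the log2 values that limma tested, neither passed that level (ratios of 0.687 and 0.754), and the highest ratio for the 4 genes was 0.818, for Vwf in culture with IL4. Chance alone passes the level in about 1 in 20 groups.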

How the results depend on the processing

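The culture responses of F7, Vwf, F13a1 and Pf4 kept direction and call under every alternative on the deposited scale, with log2 fold changes of 5.68 to 7.34, 2.76 to 3.53, -2.82 to -1.88 and -3.37 to -2.72. With a second log2 F7 (3.89) and F13a1 (-1.70) no longer passed. On that scale their log2 fold changes were smaller in size, while the SE rose from 0.82 to 1.64 for F7 and from 0.60 to 0.67 for F13a1. In marrow F7 (2.85 to 5.05) and F13a1 (-4.73 to -3.83) kept theirs, and Pf4 (0.78 to 1.61) stayed short of the threshold. Vwf in marrow ranged from -1.30 to 0.25 over left-out libraries, with the positive value without IL4 replicate 2, its library at 0 reads. The filter left F7, Pf4 and Vwf out of the marrow fit, so it gave no value there.

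The difference of responses passed for F7 with 2 reads added (3.08) and without both culture replicate 4 libraries (2.98), and ranged from 1.30 to 3.09 over left-out libraries. For F13a1 it passed with 2 reads added (1.93) and without both culture replicate 4 libraries (2.36), and ranged from 1.44 to 2.39. The cause was not tested. For Pf4 (-4.70 to -3.79) and Vwf (2.75 to 4.30) it passed throughout.

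With the replicate number as a block no call of the 4 genes changed. Whether the numbers pair the samples was not settled. Correlations of same-numbered libraries were -0.0450 to 0.0220 in culture, against -0.0339 to 0.0331 for the other pairs. The same correlations were 0.0264 to 0.0590 in marrow, against -0.0444 to 0.0116 for the other pairs. With the block the culture SE went from 0.34 to 0.15 for Pf4 and from 0.60 to 0.39 for F13a1. It went from 0.82 to 0.62 for F7 and from 0.36 to 0.38 for Vwf. The block gave an adjusted p of 0.000636 for F7, 0.00159 for Vwf, 0.00425 for F13a1 and 4.9e-05 for Pf4 in culture. Of the counts of list genes or of all genes recomputed under the alternatives, 1917 were within 1.5 times the reported count and 129 were not. Centring moved the culture calls to 1365 higher and 1205 lower, and quantile normalization to 1271 and 1324, against 754 and 3084 as deposited. Negative calls of the difference of responses became 900 and 914 under these scalings, against 1575. In marrow, higher calls numbered 397 without IL4 replicate 3, against 635, and lower calls 688 and 678 without control replicates 2 and 3, against 1086. Among the coagulation lists, centring took the fallen fibrinolysis genes of the culture to 1, against 3. Pooling all 14 libraries took the raised procoagulant genes of marrow to 1, against 2, as did the filter, and 2 reads added took the procoagulant genes with a positive difference of responses to 4, against 2. Depth limits Pf4, Vwf and F7 in marrow, where a group of 3 libraries held 2 to 52 reads of each.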
